A study of Mus musculus with 9 samples.

Results

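Polycomb repressive complex 1 (PRC1) genes were followed in neural stem cells with and without Cre deletion of Smchd1. The members are Ring1, Rnf2, Bmi1, Pcgf3, Pcgf5, Pcgf6, Rybp, Cbx2, Cbx7 and Cbx8. They were chosen by name, as the 10 rows of the deposited table that carry these symbols, out of 25965 rows in all. Each symbol had 1 row, and all 10 were among the 14044 genes kept after a filter on low values, which asked for 3 or more libraries with a log2 level of 0 or above.

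The cells were C57BL/6 neural stem cell lines made from Smchd1 fl/fl embryos of stage E14.5, in which loxP sites flank part of both Smchd1 copies. Every line was divided: the fl/fl culture stayed untransduced, and the del/del culture received the retrovirus MSCV-Cre-puro, was selected with puromycin from 24 h on, and was harvested on day 7. Deletion of Smchd1, retrovirus and puromycin therefore cannot be told apart here. Female lines 1 to 3 gave 3 libraries of each genotype, male line 5 gave 1 of each, and male line 7 gave 1 fl/fl library only, which makes 4 del/del and 5 fl/fl libraries. The design text of the series calls the lines female and the controls del/fl, and the sample labels were followed. Levels are log2 RPM, which scales the reads of a gene to the total reads of its library, as the authors gave them.

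PRC1 is a family of chromatin complexes that attach ubiquitin to histone H2A and compact chromatin, which keeps developmental genes silent. Every form holds RING1 or RNF2, the paired ubiquitin ligases, together with a PCGF protein that sets the type of complex. Canonical forms carry BMI1 or PCGF2 with a CBX protein, whose chromodomain binds the histone H3 mark left by Polycomb repressive complex 2, while variant forms carry RYBP or YAF2 in its place. BMI1 is known for keeping neural stem cells dividing by holding down the cell cycle inhibitor gene Cdkn2a. PCGF3 and PCGF5 complexes are recruited in the Xist RNA pathway on the inactive X chromosome, and PRC1 is known to act before SMCHD1 arrives there. The comparison asks whether the member genes have other RNA levels in del/del than in fl/fl cultures.

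The upstream promoter sequences of Rnf2 and Bmi1 are shown because these genes, a ligase and its PCGF partner, had the highest levels per exon length among the members, and because they stood apart in the same library. Both come from RefSeq (GRCm38.p6), are the 250 bases before the start of the gene, and have every CpG in capitals.
Rnf2 (chr1:151500992-151501241, minus strand): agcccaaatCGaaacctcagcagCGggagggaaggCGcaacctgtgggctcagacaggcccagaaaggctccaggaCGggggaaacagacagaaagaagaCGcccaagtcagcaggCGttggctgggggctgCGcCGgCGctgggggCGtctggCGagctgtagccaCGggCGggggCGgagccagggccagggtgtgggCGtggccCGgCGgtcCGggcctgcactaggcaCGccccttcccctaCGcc
Bmi1 (chr2:18676768-18677017, plus strand): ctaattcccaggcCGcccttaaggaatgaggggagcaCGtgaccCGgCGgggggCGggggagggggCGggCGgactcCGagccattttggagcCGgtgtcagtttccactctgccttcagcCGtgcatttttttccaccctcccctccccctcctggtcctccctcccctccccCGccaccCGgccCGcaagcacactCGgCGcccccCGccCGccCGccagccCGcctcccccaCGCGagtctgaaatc
These stretches hold 20 CpGs in Rnf2 and 21 in Bmi1. Over the full window of 300 bases (250 before to 50 after the start) RefSeq promoters matched 8 of the 10 members with 10 windows, and 9 of the 10 windows held at least 20 CpGs, against 26.5% of all 32851 windows. The exception was a window of Pcgf5 with 5 CpGs, which lies at the start of the Pcgf5 row of the deposited table. Other windows of Pcgf5 held 34 and 35. The GC box GGGCGG, on either strand, occurred in 8 of the 10 member windows and in 35.7% of all windows. Rnf2 had 2 and Bmi1 had 4, where boxes that overlap another counted box were left out.

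Smchd1, the targeted gene, was looked at first. It was at 5.36, 5.04, 5.21 and 5.23 in female del/del 1, 2 and 3 and male del/del 5, and at 6.16 to 6.81 in the 5 fl/fl libraries, without overlap (limma adjusted p = 0.00751 for a log2 fold change of -1.19, SE 0.148). It did not pass when male del/del 5 was left out (adjusted p = 0.0930) or when just the 6 libraries with a description starting in RNA- were used (adjusted p = 0.0553). Reads in listed genes were 12.9 M in female fl/fl 2 and 32.9 M to 44.9 M in the other 8 libraries. Female fl/fl 2 also stood apart in the share of its reads that fell in listed genes, 53.3% against 34.8% to 44.4%, and it was the highest of the 9 libraries for 48.9% of kept genes. A further split runs along the sample descriptions: female del/del 1, female fl/fl 1 and male fl/fl 7 lack the RNA- prefix of the other 6, and the labels do not say what the prefix marks. All 15 neural stem cell markers were kept (Nes at 7.21 to 8.45 and Sox2 at 5.28 to 6.46), as were 5 of 8 oligodendrocyte lineage, 4 of 8 microglia and leukocyte, 2 of 8 fibroblast and 2 of 7 endothelial markers. Of the microglia and leukocyte list Cx3cr1 was at 6.38 to 6.85, while Ptprc, Tmem119 and Aif1 had at most 3 reads in at least 1 library. The Cx3cr1 row of 166.67 kb overlaps those of Wdr48, Gorasp1, Ttc21a, Csrnp1 and Xirp1. The row of P2ry12, also kept, overlaps that of Med12l over its whole length (46561 bases). Neither level can therefore be credited to the named gene alone. In del/del cultures 8 of 11 kept interferon response genes, 3 of 8 astrocyte markers and 2 of 8 kept neuron markers rose by limma, and 0 of 10 proliferation markers did. In females alone 0 genes of these lists passed, nor did Smchd1 (log2 fold change -1.24, limma adjusted p = 0.0921). Without male del/del 5 only 2 of all kept genes were called higher. The neuron markers that rose were Nefm and Nefl, whose rows overlap by 5233 bases, while the list's median log2 fold change was -0.08, with 4 of 8 above 0. Summed levels in del/del against fl/fl libraries were 75.2 to 102 against 48.2 to 61.3 RPM for interferon response genes, 118 to 132 against 78.2 to 99.1 RPM for neuron markers and 290 to 384 against 228 to 431 RPM for astrocyte markers. The part of these shifts in the values below was not tested.

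Per length of exon, the members formed a wide range with Rnf2 and Bmi1 at the top and Cbx7 at the bottom. The scale here is log2 RPM per kb of annotated exons within the row, averaged over all 9 libraries. Rnf2 was at 3.73 ± 0.368 (SD, n = 9) and Bmi1 at 3.68 ± 0.362 (SD, n = 9), and their order was not fixed, since Rnf2 lay above Bmi1 in 6 of 9 libraries. Rybp followed at 2.45 ± 0.612 (SD, n = 9), Cbx8 at 2.28 ± 0.121 (SD, n = 9), Pcgf3 at 2.20 ± 0.191 (SD, n = 9), Ring1 at 1.99 ± 0.123 (SD, n = 9) and Pcgf5 at 1.93 ± 0.189 (SD, n = 9). The order among these 5 was not fixed, each lying above the next in 5 to 7 of 9 libraries. Pcgf6 (1.67 ± 0.148, SD, n = 9), Cbx2 (1.22 ± 0.169, SD, n = 9) and Cbx7 (-1.12 ± 0.236, SD, n = 9) closed the order, each below its neighbour in all 9 libraries.

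Paralogs of a family were also set side by side. Of the ligases, Rnf2 exceeded Ring1 in all 9 libraries by a mean of 1.74 on the log2 scale per exon kb. Of the 6 PCGF genes, Bmi1 was highest and its closest paralog Pcgf2 lowest (0.38), and each step of the order Bmi1, Pcgf3, Pcgf5, Pcgf6, Pcgf1, Pcgf2 held in all 9 libraries. Among the member CBX genes, Cbx7 was 2.34 below Cbx2, in 9 of 9 libraries. Yaf2 was 1.51 above Rybp in the same units, in 9 of 9 libraries. The deposited rows cover introns too, and the order depends on how length is counted. Per kb of the whole row Ring1 (1.72), whose row is 3.89 kb, came above Rnf2 (0.62), whose row is 31.42 kb. On that scale Bmi1 was first of the 10 members (2.41) and Cbx7 last (-4.21), and the PCGF order was Bmi1, Pcgf1, Pcgf3, Pcgf6, Pcgf2 and Pcgf5.

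**Figure D1:**
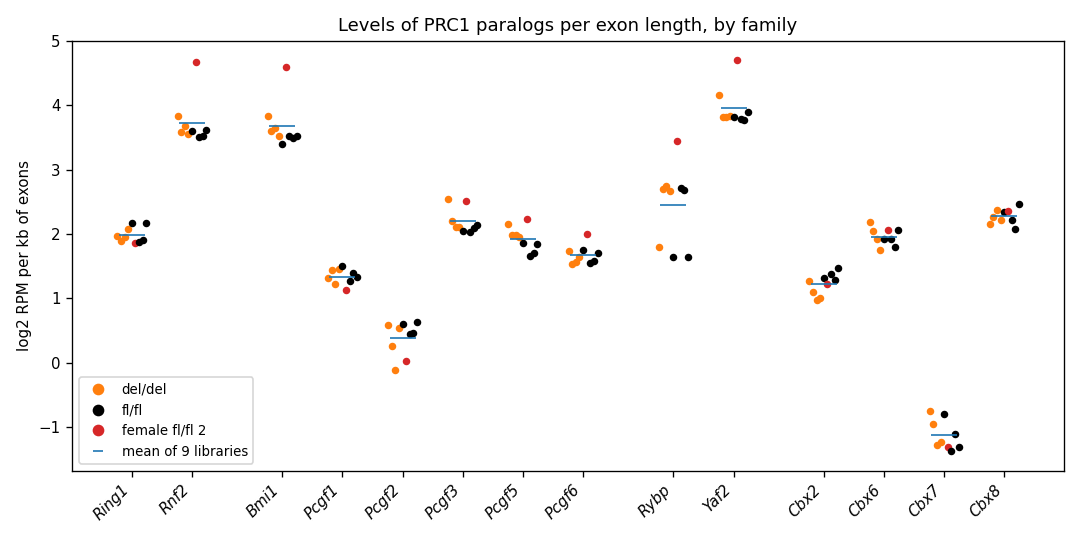
Levels of PRC1 paralogs in log2 RPM per kb of exons (vertical axis), grouped by family along the horizontal axis. Points are the 9 libraries and blue bars their mean; Bmi1 and Rnf2 lie near 3.7 and Cbx7 near -1.12, and the red point of female fl/fl 2 is far above the rest for Rnf2, Bmi1 and Rybp.

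None of the 10 members passed the test between del/del and fl/fl cultures over both sexes (limma with sex as a covariate, Benjamini-Hochberg over all kept genes), where 1.55% of kept genes did (203 or 1.45% higher and 14 or 0.0997% lower). At an unadjusted p under 0.05 there was 1 member, Cbx2, against 9.84% of all kept genes. The member log2 fold changes ran from -0.25 (Cbx2) to 0.14 (Pcgf5), with a median of -0.03 against 0.00 over all kept genes, and 4 of 10 estimates lay above 0 against 48.9% of kept genes. For 9 of the 10 the interval at 95% confidence held 0. The median half-width of the interval was 0.29 on the log2 scale for them and 0.33 for all kept genes. In none of the 10 were the del/del and fl/fl values free of overlap, as they were in 6.52% of kept genes.

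**Figure D2:**
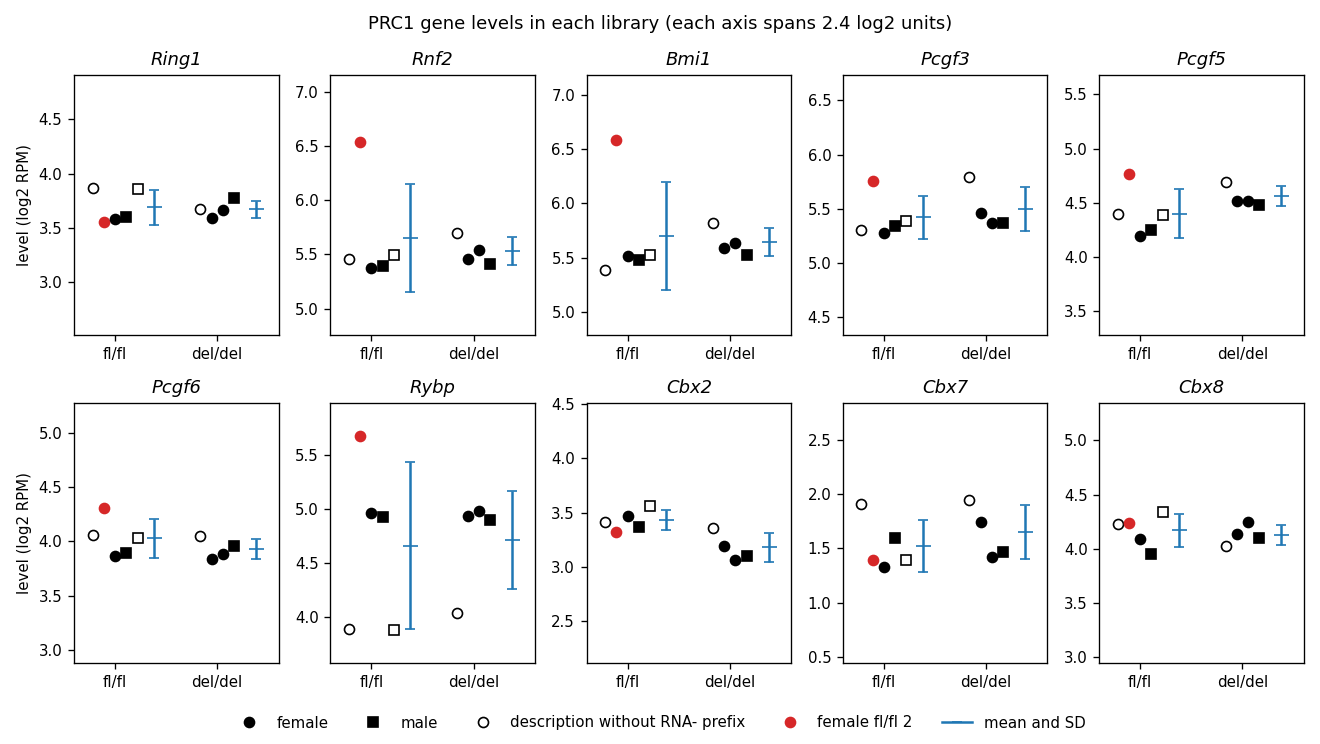
Level of each member in log2 RPM (vertical axis) in fl/fl and del/del libraries, with circles for female, squares for male, open symbols for descriptions without the RNA- prefix, red for female fl/fl 2, and blue bars for the mean and SD. Cbx2 is lower in most del/del libraries, the 3 open symbols lie far below the others for Rybp, and female fl/fl 2 is the highest point for Rnf2, Bmi1 and Rybp.

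The ligase genes were estimated with different precision. Ring1 (chromosome 17, 34020792 to 34024680, mm10, minus strand) was at 3.67, 3.59 and 3.66 in female del/del 1, 2 and 3 and 3.77 in male del/del 5. In female fl/fl 1, 2 and 3 it was at 3.87, 3.55 and 3.58, and in male fl/fl 5 and 7 at 3.60 and 3.86. All del/del values lay inside the range of the fl/fl values, with a log2 fold change of -0.01 (SE 0.105, interval -0.24 to 0.23, limma adjusted p = 0.999), so changes beyond 0.846-fold or 1.17-fold lay outside the interval. Rnf2 (chromosome 1, 151469406 to 151500823, minus strand), the main ligase in many cell types, was at 5.70, 5.46, 5.54 and 5.41 in the del/del libraries in the same order. It was at 5.46, 6.54 and 5.37 in female fl/fl 1, 2 and 3 and at 5.39 and 5.49 in male fl/fl 5 and 7. Only female fl/fl 2 left the band from 5.37 to 5.70 that the other 8 libraries filled. The log2 fold change of Rnf2 was -0.16 (SE 0.224, interval -0.66 to 0.34, adjusted p = 0.997), and it changed sign to 0.09 (adjusted p = 0.734) without female fl/fl 2.

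Bmi1 (chromosome 2, 18677018 to 18686629, plus strand), the PCGF subunit of canonical PRC1 known from neural stem cell self-renewal, showed the same feature. It was at 5.82, 5.59, 5.63 and 5.52 in del/del libraries, at 5.39, 6.58 and 5.51 in female fl/fl 1, 2 and 3, and at 5.48 and 5.52 in male fl/fl 5 and 7. Female fl/fl 2 was 0.76 above the next library, and for Rnf2 the gap was 0.84; a gap of at least 0.5 was found in 14.1% of kept genes. The log2 fold change of Bmi1 was -0.09 (SE 0.224, interval -0.60 to 0.41, limma adjusted p = 0.997). Without female fl/fl 2 it was 0.16 (adjusted p = 0.558), and there the del/del values lay above the fl/fl values without overlap, which held for 12.3% of kept genes and was lost after median centring. Of the 50-base words in Bmi1 transcripts 16.7% also occur in transcripts of other genes, among them the predicted gene Gm5946. How reads with several places were counted is not stated by the labels.

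The PCGF genes of variant complexes were Pcgf3, Pcgf5 and Pcgf6. Pcgf3 (chromosome 5, 108461232 to 108506976) was at 5.37 to 5.79 in del/del and 5.28 to 5.76 in fl/fl libraries, with the highest del/del value in female del/del 1 (log2 fold change 0.06, interval -0.25 to 0.37, limma adjusted p = 0.997). Pcgf6 (chromosome 19, 47033619 to 47050845), of the complex with MGA and L3MBTL2, was at 3.84 to 4.05 in del/del and 3.86 to 4.31 in fl/fl libraries (log2 fold change -0.11, interval -0.36 to 0.15, adjusted p = 0.997). The groups overlapped for both genes.

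Pcgf5 (chromosome 19, 36379067 to 36456192, plus strand) had the largest positive estimate. It was at 4.69, 4.52, 4.52 and 4.48 in del/del libraries, at 4.40, 4.77 and 4.19 in female fl/fl 1, 2 and 3, and at 4.25 and 4.39 in male fl/fl 5 and 7. Apart from female fl/fl 2, every fl/fl library was below every del/del library. Without that library 12.3% of kept genes were free of overlap. The log2 fold change of 0.14 (SE 0.125, interval -0.14 to 0.42) did not pass (limma adjusted p = 0.997), and without female fl/fl 2 it was 0.24 (adjusted p = 0.314). With that library left out and the libraries centred on their medians it was 0.17 (adjusted p = 0.137), and the groups remained free of overlap, as did 14.3% of kept genes.

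Of the CBX genes, Cbx2 (chromosome 11, 119022962 to 119031270, plus strand) came closest to a call and pointed down. CBX2 is the CBX protein known for compacting chromatin. It was at 3.36, 3.19, 3.06 and 3.10 in del/del libraries, at 3.41, 3.32 and 3.47 in female fl/fl 1, 2 and 3, and at 3.37 and 3.56 in male fl/fl 5 and 7. The only crossing was between female del/del 1 and female fl/fl 2. With female fl/fl 2 left out, 12.3% of kept genes had no crossing. The means were 3.18 ± 0.135 (SD, n = 4) and 3.43 ± 0.094 (SD, n = 5), a log2 fold change of -0.25 (SE 0.103, interval -0.48 to -0.02) or a 1.19-fold difference. The limma unadjusted p was 0.0360 and the adjusted p = 0.430, so it did not pass over all genes. Del/del was lower in 4 of 4 line pairs, and 22.0% of kept genes had all 4 pairs on 1 side. The estimate stayed negative in all 21 alternatives, from -0.36 to -0.20. It passed in 2 of them. With limma array weights the adjusted p was 0.0171, where 1122 of the 14044 kept genes passed as higher and 252 as lower. Without female fl/fl 2 and with median centring the estimate was -0.36 (limma adjusted p = 0.0392), where 69 of the 14044 passed as lower. Its counts were 241 to 1364 reads per library. In such bulk cultures fewer cells of a type and less RNA per cell cannot be told apart.

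Cbx8 (chromosome 11, 119036305 to 119040969, minus strand), a neighbour of Cbx2 on the other strand, encodes another CBX protein of canonical PRC1. It was at 4.03, 4.14, 4.25 and 4.10 in del/del libraries, at 4.23, 4.24 and 4.09 in female fl/fl 1, 2 and 3, and at 3.95 and 4.34 in male fl/fl 5 and 7. All del/del values lay within the fl/fl range (log2 fold change -0.05, SE 0.106, interval -0.28 to 0.19, limma adjusted p = 0.997). Cbx7 (chromosome 15, 79915807 to 79971119, minus strand), known as a main CBX protein of pluripotent stem cells, was the lowest member, with 63 to 437 reads per library. It was at 1.95, 1.74, 1.42 and 1.47 in del/del libraries and at 1.33 to 1.91 in fl/fl libraries, the higher values in both groups being those of line 1. Its log2 fold change was 0.11 (SE 0.178, interval -0.29 to 0.50, adjusted p = 0.997). The Cbx7 row overlaps that of Apobec3 by 100 bases, and Apobec3 itself did not pass (log2 fold change 0.26, adjusted p = 0.427).

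Rybp (chromosome 6, 100228566 to 100287441, minus strand), the subunit that marks variant PRC1 and stimulates its ligase, had the least certain estimate. In the libraries without the RNA- prefix it was at 4.04 (female del/del 1), 3.89 (female fl/fl 1) and 3.88 (male fl/fl 7). With the prefix it was at 4.93, 4.98 and 4.90 in female del/del 2 and 3 and male del/del 5, at 4.96 and 4.92 in female fl/fl 3 and male fl/fl 5, and at 5.67 in female fl/fl 2. The 2 sets did not overlap, which was so for 1 of 10 members and 9.95% of kept genes, and each held del/del and fl/fl libraries at like levels, apart from female fl/fl 2. Over all 9 libraries the del/del effect was 0.03 (SE 0.379, interval -0.82 to 0.87, limma adjusted p = 0.999). With the prefix as a term, an alternative added after these values were seen, it was -0.15 (adjusted p = 0.942).

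In that fit the difference between libraries with and without the prefix was itself 1.15 for Rybp (SE 0.164, 2.22-fold, limma adjusted p = 0.00195), the only member of 10 that passed there, against 3.8% of kept genes (532 or 3.79% higher with the prefix and 2 lower). The other 9 members had prefix differences of -0.28 to 0.16. Cbx3, which encodes a chromobox protein found in PCGF6 complexes, gave a like value (1.18, SE 0.221, limma adjusted p = 0.0134). It was named after the values were seen, as the only 1 of 23 other variant subunits and partners that passed there. Of 8 other canonical subunits, 12 genes of H2A deubiquitination and 7 CDK inhibitors, 0 passed. Cbx3 was at 4.00 to 4.13 without the prefix and at 4.91 to 6.03 with it. Lines 1 and 7 lack the prefix and lines 2, 3 and 5 carry it, so prefix and line cannot be told apart. The fit had no line term and counted both cultures of a line as separate, so its SE and p-values may be too small. Of the 50-base words of Rybp transcripts 8.93% occur in another gene, the pseudogene Rybp-ps. The part of shared sequence in this split was not tested.

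**Figure D3:**
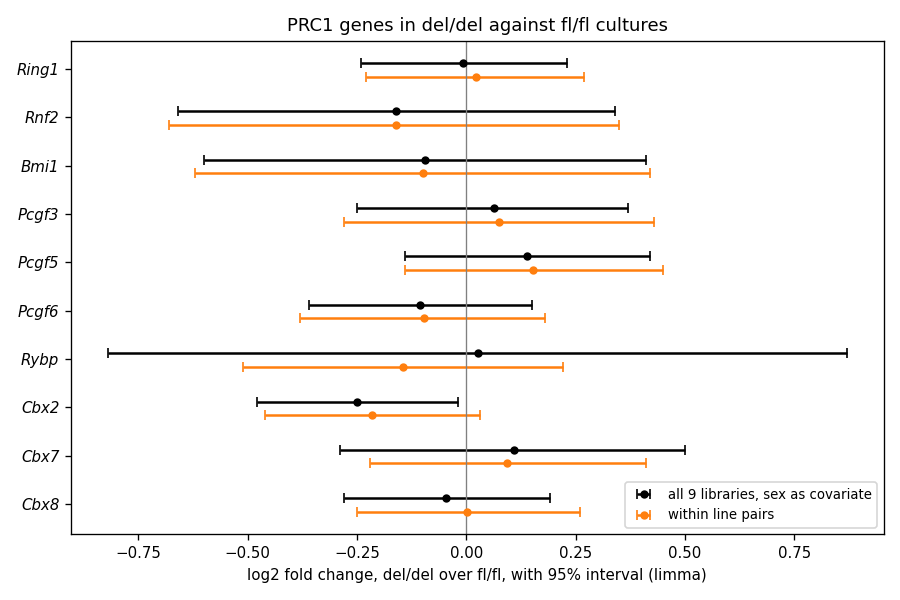
Log2 fold change of del/del over fl/fl for each member (horizontal axis) with its interval at 95% confidence from limma, over all 9 libraries with sex as covariate (black) and within line pairs (orange). The black interval of Cbx2 ends at -0.02, all other intervals cross 0, and that of Rybp narrows within line pairs.

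Compared within lines, the members again gave no call (0 of 10, while 3.99% of kept genes passed with the line as a block: 529 higher and 32 lower, or 226 and 24 with median centring as well). No member had an unadjusted p under 0.05 there, against 14% of kept genes. The estimate for Cbx2 was -0.22 (SE 0.108, interval -0.46 to 0.03, limma adjusted p = 0.462), for Pcgf5 0.15 (interval -0.14 to 0.45, adjusted p = 0.850) and for Rybp -0.14 (SE 0.159, interval -0.51 to 0.22, adjusted p = 0.941). The interval of Rybp was narrower than over all libraries, and both cultures of each line carry the same kind of description.

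The members' direction differed between the 4 pairs. In line 2, whose control is female fl/fl 2, 8 of 10 members were lower in del/del, led by Rnf2 (-1.08), Bmi1 (-0.99) and Rybp (-0.74), and the median of all kept genes was also lower (-0.25). In line 1 6 of 10 members were higher, with Pcgf3 at 0.49 and Bmi1 at 0.43, beside a median of 0.22 over all kept genes. In line 3 9 of 10 were higher and only Cbx2 was lower (-0.41), and in the male line 5 7 of 10 were higher and Cbx2 was again the lowest (-0.27). The shares of all kept genes that were higher in del/del were 81.3%, 32.0%, 75.6% and 69.0% in lines 1, 2, 3 and 5. After each library was centred on its median, Cbx2 was lower in lines 1, 3 and 5 (-0.23, -0.50 and -0.36) and higher in line 2 (0.10).

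**Figure D4:**
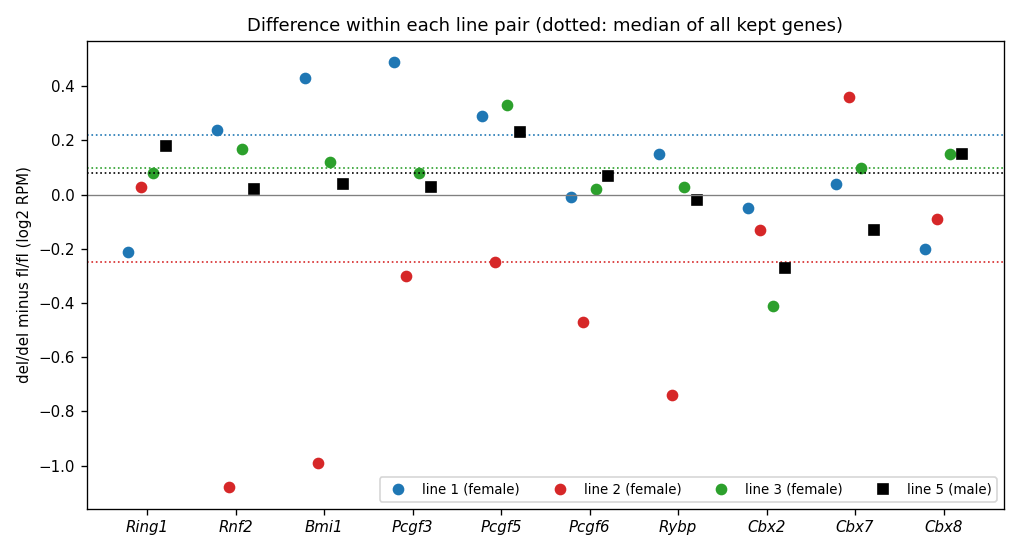
Difference between the del/del and fl/fl cultures of each line in log2 RPM (vertical axis) for each member, with a colour per line and dotted lines for the median of all kept genes in that pair. Cbx2 is below 0 in all 4 pairs, and the red points of line 2 reach -1.08 for Rnf2 and -0.99 for Bmi1.

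Separated by sex, no member passed in females (0.0142% of kept genes did), in males (0%) or for the difference between the female and male effects (0%), all by limma. Smchd1 did not pass in females either (log2 fold change -1.24, limma adjusted p = 0.0921), so the female comparison can miss a change of that size. At an unadjusted p under 0.05 there were also 0 members in each of these, against 6.52%, 2.63% and 0.0427% of kept genes. The effect on Cbx2 was -0.20 in females (interval -0.50 to 0.10) and -0.36 in males (interval -0.82 to 0.09), and the difference between them was 0.16 (SE 0.241, adjusted p = 1). The male effect rests on 1 del/del library, whose spread is taken to equal that of the other groups. Female and male fl/fl libraries were also compared: 0 members passed, while 0.0356% of kept genes did (0.0142% higher in females and 0.0214% lower). The member estimates for female over male ran from -0.06 (Ring1 and Cbx2) to 0.44 (Rybp).

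The other genes of the pathway also gave no call. Of 8 further canonical subunits, 23 variant subunits and partners, 12 genes of H2A deubiquitination and 7 CDK inhibitors, all kept, 0 rose and 0 fell over both sexes or within line pairs by limma. Among all kept genes 1.55% passed over both sexes and 3.99% within line pairs, so lists this small could give 0 at that share. The median log2 fold changes of these lists over both sexes were -0.01, -0.07, 0.00 and -0.04. Among canonical subunits the smallest p belonged to Scml2, an X-linked gene of the Scm family (0.26, SE 0.129, limma adjusted p = 0.599), and Scmh1 of the same family (0.18, adjusted p = 0.770). Scml2 was at 2.43, 2.79, 2.64 and 2.80 in del/del libraries and at 2.27 to 2.69 in fl/fl libraries. The variant partners with the smallest p were Kdm2b, whose protein brings PRC1 to unmethylated CpG islands (-0.22, SE 0.129, adjusted p = 0.749), and Auts2, a partner of PCGF5 known from neuronal genes (-0.17, adjusted p = 0.803). The Kdm2b row overlaps A930024E05Rik and Orai1, and that of Auts2 overlaps Gm20382.

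H2A deubiquitination removes the mark that PRC1 sets, and BAP1 is its best-known enzyme. The smallest p in this list belonged to Foxk1 (log2 fold change 0.11, limma adjusted p = 0.997) and Foxk2 (-0.15, adjusted p = 0.997), transcription factors that bind BAP1. Among the CDK inhibitors, Cdkn2b had 0.16 (SE 0.124, adjusted p = 0.951) and Cdkn2d -0.17 (adjusted p = 0.997). Cdkn2a, the classic target of BMI1, was named after its values were seen: it was at 3.58 to 3.88 in del/del and 3.39 to 4.16 in fl/fl libraries, with -0.01 (interval -0.31 to 0.29, adjusted p = 0.999). The del/del values lay inside the fl/fl range, whose top is female fl/fl 2; the fl/fl mean was 3.70, and 3.59 without that library, against 3.73 in del/del.

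The genes whose levels resembled those of Cbx2 most over the 9 libraries, each library centred on its median, were Zfp282 (Pearson r = 0.981), Zfp689 (r = 0.970) and Fam135b (r = 0.968). The first and second encode zinc finger proteins. Their own log2 fold changes were -0.12, -0.30 and -0.18, none of which passed (limma adjusted p = 0.935, 0.457 and 0.673), and 48 kept genes had an r of at least 0.9 to Cbx2. For Rnf2 and Bmi1 that number, looked up after the values were seen, was 2032 and 1797. Before centring, female fl/fl 2 was at 6.54 for Rnf2 against 5.37 to 5.70 in the other libraries. For Bmi1 it was at 6.58 against 5.39 to 5.82. The part of that library in these numbers was not tested.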

How the data were processed

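RNA of 9 neural stem cell libraries was sequenced. Build mm10, TopHat2 2.0.12, bcl2fastq and edgeR 3.8.2 are listed in the submitters' processing notes. Of the read counter, annotation release and strand setting nothing is given in the sources used here. The authors deposited log2 RPM per gene and library. At least 99.9961% of values per library were log2 of whole reads (tolerance 0.05 reads) times 1 constant, with no read entered as 0.9 reads. Depth was 12.9 M to 44.9 M reads in listed genes, which limits counting error only.

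Groups came from the sample titles. The 14044 genes with a log2 level of 0 or above in 3 or more libraries were tested with limma 3.58.1 in R 4.3.3 (trend, two-sided, Benjamini-Hochberg over all kept genes, threshold 0.05). Sex was a covariate over all 9 libraries (6 comparisons in all); sex-specific effects came from 4 group means. The fit was tested on simulated reads, drawn around the same gene means in every library apart from planted changes. These reads held no line effect, no prefix split and no library that stands apart, so the test does not cover such features. Exon lengths and shared 50-base words came from GENCODE vM21. Line numbers pair the libraries of 4 lines, since each line was divided before transduction; deviations of same-line female libraries from their group means had r across genes of 0.868, 0.582 and 0.758, but female del/del 2 had 0.728 with female fl/fl 3 and female del/del 3 had 0.494 with female fl/fl 2, so r does not tell lines 2 and 3 apart. Of the female lines only line 1 lacks the RNA- prefix, so its r of 0.868 cannot be told apart from that split. Libraries of a group come from separate lines. The alternatives were the line as a block, median centring, quantile normalization, log2 of RPM plus 1, no filter, voom, no sex term, array weights, the libraries with the RNA- prefix, and leaving out each library; the prefix term and median centring without female fl/fl 2 were added after the data were seen. Members and lists were chosen with earlier results of these data known. All 10 members are named, with Smchd1 and genes of overlapping rows. So are the listed genes with the smallest p (2 per list, since none passed) and the 3 genes most like the member with the smallest p. Cbx3 and Cdkn2a were named after their values were seen. No negative binomial test was run. A related gene is not reported here.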

Additional observations from a re-analysis of the deposited data

Results flagged for a closer look

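In groups of 4 or 5 libraries, a library whose gap to its neighbour took most of the range of its group was marked by Dixon's criterion, which chance meets in about 1 in 20 groups. In the fl/fl group this was female fl/fl 2 for Rnf2 (6.54), Bmi1 (6.58) and Pcgf3 (5.76). In the del/del group it was female del/del 1 for Rybp (4.04), the only del/del library without the RNA- prefix in its description. Female fl/fl 2 was the highest library for 48.9% of kept genes and at least 0.5 above the next for 14.1%. The share of all kept genes that the criterion would mark was not counted. Cbx7 was lower in del/del in the male line pair (-0.13) and higher in the 3 female pairs (0.04, 0.36 and 0.10); the difference between the female and male effects on Cbx7 was 0.19 (SE 0.413, limma adjusted p = 1). The causes were not tested.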

How the results depend on the processing

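Over both sexes 203 genes were higher and 14 lower. With the line as a replicate block these counts were 529 and 32, and with median centring as well 226 and 24. Quantile normalization gave 86 higher, array weights 1122 and 252, the 6 libraries with the RNA- prefix 6 lower, the prefix term 381 higher, and median centring without female fl/fl 2 69 lower. Leaving out each library gave 2 to 243 higher and 0 to 15 lower. The counts were 2 and 0 without male del/del 5, 50 and 4 without female del/del 2, 61 and 5 without female del/del 1, and 88 and 6 without female fl/fl 3. They were 112 and 5 without male fl/fl 5, 126 and 9 without female del/del 3, and 243 and 9 without male fl/fl 7. In females (2 higher, 0 lower) median centring gave 0 and 1, quantile normalization 1 lower, log2 of RPM plus 1 38 and 1, and the replicate block 274 and 13. Leaving out each library gave 0 to 6 higher and 0 to 1 lower there.

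The number of members past the threshold was 1, Cbx2, with array weights and with median centring without female fl/fl 2, and 0 under the other 19 alternatives; the block changed no member's call. Estimates that changed sign were as follows. With the block Ring1 was 0.02, Rybp -0.14 and Cbx8 0.0017, and with centring as well Rybp was -0.18. Quantile normalization gave Cbx7 -0.07. Array weights gave Rnf2 0.02, Bmi1 0.09, Cbx7 -0.02 and Cbx8 0.01. The 6 RNA- libraries gave Ring1 0.10, Pcgf3 -0.06, Rybp -0.24 and Cbx8 0.07, and the prefix term Ring1 0.02 and Rybp -0.15. Centring without female fl/fl 2 gave Rnf2 0.01, Bmi1 0.08 and Cbx7 -0.03. Leaving out each library gave ranges of -0.04 to 0.06 for Ring1, -0.29 to 0.09 for Rnf2, -0.23 to 0.16 for Bmi1, -0.02 to 0.16 for Pcgf3, -0.25 to 0.33 for Rybp and -0.09 to 0.0017 for Cbx8. In females the ranges were -0.09 to 0.07 for Ring1, -0.43 to 0.15 for Rnf2, -0.36 to 0.23 for Bmi1, -0.03 to 0.25 for Pcgf3, -0.01 to 0.28 for Pcgf5, -0.66 to 0.23 for Rybp and -0.10 to 0.01 for Cbx8. Cbx2, Pcgf5 and Pcgf6 kept their direction over both sexes in 21 of 21 alternatives. The causes were not tested. Depth limits Cbx7 most, with 63 reads in the shallowest library.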
